A study of Caenorhabditis elegans with 21 samples.

Results

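Sperm genes were taken as every Caenorhabditis elegans gene whose name begins with msp-, ssp-, nspd- or spe-, together with gsp-3 and gsp-4. This gave 84 of the 22037 genes in the deposited tables: 31 msp genes, 29 spe genes, 12 ssp genes, 10 nspd genes and the 2 gsp genes. They were followed in RNA from whole worms of 7 genotypes, 3 libraries each, in which genes acting on the hypoxia-inducible factor HIF-1 were mutated. Beside the wild type N2, 4 mutants carried 1 allele, which was hif-1(ia4) or vhl-1(ok161) or rhy-1(ok1402) or egl-9(sa307). The other two genotypes combined egl-9(sa307) with a second allele and are written egl-9;vhl-1, with vhl-1(ok161), and egl-9 hif-1, with hif-1(ia4). All worms were synchronized young adults without visible eggs, fed OP50 bacteria on NGM plates, and each sample held 30 to 50 worms. The question was whether the sperm genes moved in each genotype and, where they did, whether they moved by 1 common ratio.

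In C. elegans hermaphrodites the germline makes sperm during the last larval stage and then switches to oocytes, so the sperm RNA of a young adult is a remnant of an earlier phase of the same gonad. Major sperm proteins, encoded by the msp genes, are small proteins that assemble into the filaments that drive the crawling of nematode sperm, and they also act as a signal that triggers oocyte maturation and ovulation. The ssp genes encode small proteins related to the major sperm proteins, gsp-3 and gsp-4 encode nearly identical sperm-specific PP1 phosphatases, and spe genes were named for mutants with defective sperm. EGL-9 hydroxylates HIF-1, VHL-1 recognises the hydroxylated protein for degradation, and RHY-1 acts before EGL-9 in the same pathway.

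The libraries held 7329864 to 10102598 estimated counts each. Levels are given as CPM, the count scaled to the library size after TMM adjustment. The hif-1 transcript was at 105 to 131 CPM in N2 and at 13.3 to 21 CPM in the 6 libraries with the hif-1 mutation, and vhl-1 had 9 to 19 counts in N2 libraries and 0 counts in all 6 libraries with the vhl-1 mutation. The egl-9 and rhy-1 transcripts were present in their own mutants, at 89.1 to 104 and at 161 to 179 CPM, so these gene-level counts do not check the labels of those mutants.

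Of the 84 sperm genes, 66 passed the filter on low counts: 28 msp, 27 spe, 9 ssp and both gsp genes. No nspd gene passed. Only nspd-6 (chromosome IV, 5165511 to 5165726) had counts in its family, at most 1.06 CPM in a library, and the other 9 nspd genes were listed at 0 in all 21 libraries. The untested genes outside that family included msp-31, msp-58 and msp-74, which were also listed at 0, and spe-43, ssp-19, ssp-32 and ssp-36. The msp genes are near-identical copies, and their estimated counts were divided among copies: 3.74% of their values above 0 were whole numbers (within 1e-06), against 98% for spe genes. The level of a single msp gene is therefore less certain than that of the family, and the same holds for gsp-3 and gsp-4, with 9.52% whole values.

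Corrected for length, the msp family made up nearly all of the sperm gene signal, at 26900 of 28190 TPM (a length-corrected abundance) averaged over the libraries, and msp-53 alone averaged 7226 TPM. The spe genes summed to 515.5 TPM, the ssp genes to 430.4 TPM and the gsp genes to 341 TPM. The msp genes lie in clusters, 13 on chromosome II between 4785898 and 5810330 and 18 on chromosome IV between 5055631 and 10143740 (WBcel235, Ensembl 115; it is not stated to be the submitters' build).

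The summed sperm gene level was highest in hif-1 and lowest in egl-9;vhl-1. In N2 the 3 libraries held 5373, 7367 and 8338 CPM (7026 ± 1510, mean ± SD, n = 3), and in egl-9;vhl-1 they held 3180, 3883 and 3266 CPM (3443 ± 384), a ratio of 0.49 to N2. Every egl-9;vhl-1 library lay below every N2 library. In hif-1 the libraries held 6851, 10840 and 11020 CPM (9567 ± 2350, ratio 1.36), and the lowest of them lay within the N2 range. The other mutants lay between, with 5533, 7131 and 7287 CPM in rhy-1, 5718, 6954 and 6014 CPM in vhl-1, 6487, 6231 and 5914 CPM in egl-9 hif-1, and 5907, 3861 and 6075 CPM in egl-9. Their ratios to N2 were 0.947, 0.887, 0.884 and 0.752. In the order hif-1, N2, rhy-1, vhl-1, egl-9 hif-1, egl-9, egl-9;vhl-1, the ranges of each pair of neighbours overlapped. CPM is a share of the RNA of whole worms. Fewer sperm, less of these RNAs per sperm, more RNA from other cells and a difference in stage cannot be told apart here.

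**Figure D1:**
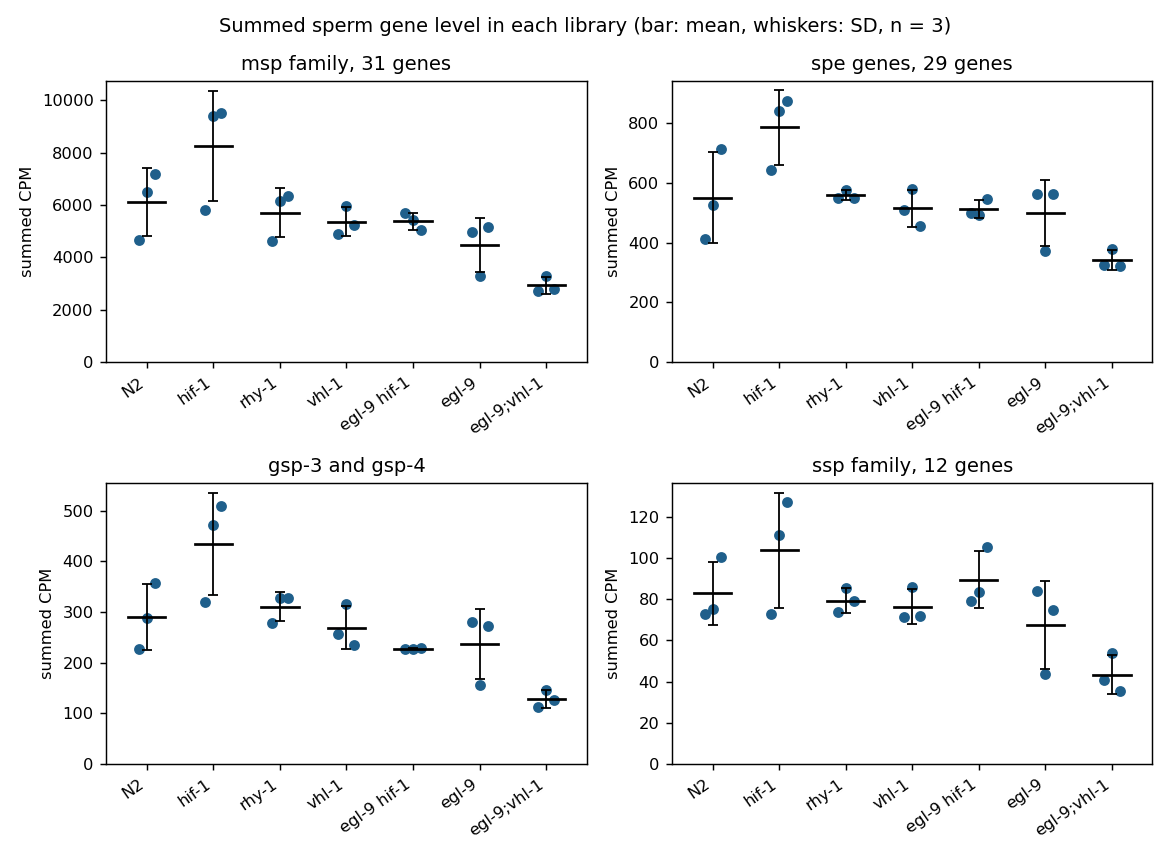
Summed level of the sperm gene families in each of the 21 libraries, in CPM (points), with the mean (bar) and SD (whiskers) of 3 libraries per genotype; the nspd family is not drawn. For the msp family the 3 egl-9;vhl-1 libraries lie between 2701 and 3302 CPM, below all N2 libraries (4660 to 7165 CPM), and hif-1 has the highest mean in all 4 panels.

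In egl-9;vhl-1 against N2, sperm genes fell across the families. Of the 66 tested sperm genes, 49 fell and 2 rose at an adjusted p below 0.05 (edgeR's quasi-likelihood test, Benjamini-Hochberg adjustment over 13043 genes), where 18.1% of all tested genes fell and 16.5% rose. All 28 msp genes fell, as did 6 of 9 ssp genes, both gsp genes and 13 of 27 spe genes. The msp copies share reads, as do the 2 gsp genes, so their falls are not separate observations. The median log2 fold change was −1.12 over the sperm genes and 0.02 over all tested genes. The groups did not overlap for 51 sperm genes that were lower and 2 that were higher, against 23.4% and 23.3% of all tested genes.

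The most abundant msp gene, msp-53 (chromosome IV, 5064678 to 5065061), was at 1372, 1899 and 2113 CPM in the N2 libraries and at 803.7, 993.6 and 802.5 CPM in the egl-9;vhl-1 libraries. It fell 2.07-fold (log2 fold change −1.05, SE 0.20, edgeR adjusted p = 0.000417), with all 3 mutant libraries below all N2 libraries. The next most abundant, msp-59 and msp-113, fell 1.99-fold and 1.91-fold, also without overlap. Over the 28 msp genes the median was −1.14 and the smallest fall was 0.77, in msp-65 (log2 fold change −0.77, SE 0.19, edgeR adjusted p = 0.00413).

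Both phosphatase genes, which lie apart on chromosome I but share reads, fell by similar amounts. gsp-3 (4709259 to 4710712) was at 125, 155.9 and 193.1 CPM in N2 and at 63.5, 83.4 and 67.3 CPM in egl-9;vhl-1, a 2.21-fold fall. gsp-4 (3838237 to 3839673) was at 101.3, 131.2 and 164.1 CPM in N2 and at 48.5, 63.3 and 58.8 CPM in the mutant, a 2.32-fold fall. The groups did not overlap for either gene (edgeR adjusted p = 0.000346 and 0.000154).

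In the ssp family, 2 genes carry the name ssp-9. The first (WBGene00006040) was at 18.9, 17.5 and 29 CPM in N2 and at 10.17, 13.73 and 9.78 CPM in egl-9;vhl-1, a 1.93-fold fall with no overlap (edgeR adjusted p = 0.0146). Its namesake (WBGene00006038) also had no overlap but did not pass the test (log2 fold change −0.77, SE 0.35, edgeR adjusted p = 0.104). ssp-10 fell 1.96-fold, from 11.8, 12.2 and 14.8 CPM to 6.599, 8.618 and 4.51 CPM without overlap (edgeR adjusted p = 0.0129).

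Among the spe genes, those of early spermatogenesis were divided. The gene spe-44 encodes a SAND-domain transcription factor that switches on many sperm genes. It was at 19, 17.9 and 21.5 CPM in N2 and at 17, 15.7 and 16.7 CPM in egl-9;vhl-1, and while the groups did not overlap, the difference did not pass the test (log2 fold change −0.24, SE 0.13, edgeR adjusted p = 0.154). Of the 7 tested genes that act in spermatocyte division and spermatid formation, 3 fell and 1 rose. The 3 were spe-4, a presenilin of the fibrous body membranous organelle, at 2.56-fold (edgeR adjusted p = 0.00251), spe-15, a myosin VI, at 1.91-fold (0.00224), and spe-26, a kelch-repeat protein, at 2.51-fold (0.000131).

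The gene that rose was spe-5, which encodes a V-ATPase subunit. It was at 15.6, 15.2 and 18.5 CPM in N2 and at 26.5, 27.7 and 23.9 CPM in egl-9;vhl-1, with no overlap (log2 fold change 0.67, SE 0.12, edgeR adjusted p = 0.000283). The gene overlaps ift-20 on the opposite strand, and the libraries do not mark strand. The genes spe-6 (casein kinase I-like), spe-10 (a palmitoyl transferase) and spe-39 (a vesicle trafficking partner of VPS33 with a role beyond sperm) did not pass the test, at log2 fold changes of −0.10, −0.63 and −0.06.

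Sperm activation turns the round spermatid into a crawling sperm, and 4 of its 7 tested genes fell in egl-9;vhl-1. The tyrosine kinase gene spe-8 was at 5.27, 5.77 and 9.89 CPM in N2 and at 1.65, 4.31 and 3.12 CPM in the mutant, a 2.24-fold fall with no overlap (edgeR adjusted p = 0.00645). spe-12 and spe-27, which act with spe-8, fell 1.78-fold and 3.32-fold (edgeR adjusted p = 0.0189 and 0.0263), and spe-46, whose mutations were found as suppressors of spe-27, fell 2.06-fold (0.00203). spe-27 was rare, at 0.588 to 1.93 CPM in N2. The genes spe-19, spe-29 and spe-47, with log2 fold changes of 0.07, −0.63 and −1.16, did not pass the test.

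Of the 8 tested genes for fertilization at the sperm surface or secreted from sperm, 3 fell in egl-9;vhl-1. The EGF-repeat gene spe-9 was at 1.03, 1.65 and 2.53 CPM in N2 and at 0.138, 0.501 and 0.108 CPM in the mutant, a 6.30-fold fall without overlap (log2 fold change −2.66, SE 0.57, edgeR adjusted p = 0.00125). It is rare and overlaps C17D12.5 on the opposite strand. The channel gene spe-41 fell 1.67-fold (edgeR adjusted p = 0.0404). The genes spe-36, spe-38, spe-42, spe-49 and spe-51, all had a lower mean in the mutant, with log2 fold changes from −0.55 to −1.24, and did not pass the test. They were rare, at 0.207 to 2.71 CPM in N2 libraries. The paternal factor gene spe-11, whose product enters the embryo with the sperm, fell 2.13-fold, from 18, 28.4 and 34.2 CPM to 11.8, 13.3 and 12.4 CPM (edgeR adjusted p = 0.000286).

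The most abundant spe gene, spe-18, which is needed for fibrous body assembly, was at 103.5, 149.9 and 237.6 CPM in N2 and at 51.1, 70.2 and 52.2 CPM in egl-9;vhl-1. It fell 2.82-fold with no overlap (edgeR adjusted p = 0.000361). spe-48 was the other gene of the set that rose, from 62.4, 56.3 and 65.8 CPM to 75.1, 86.1 and 71.3 CPM (log2 fold change 0.33, SE 0.11, edgeR adjusted p = 0.0261), and its groups did not overlap either.

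**Figure D2:**
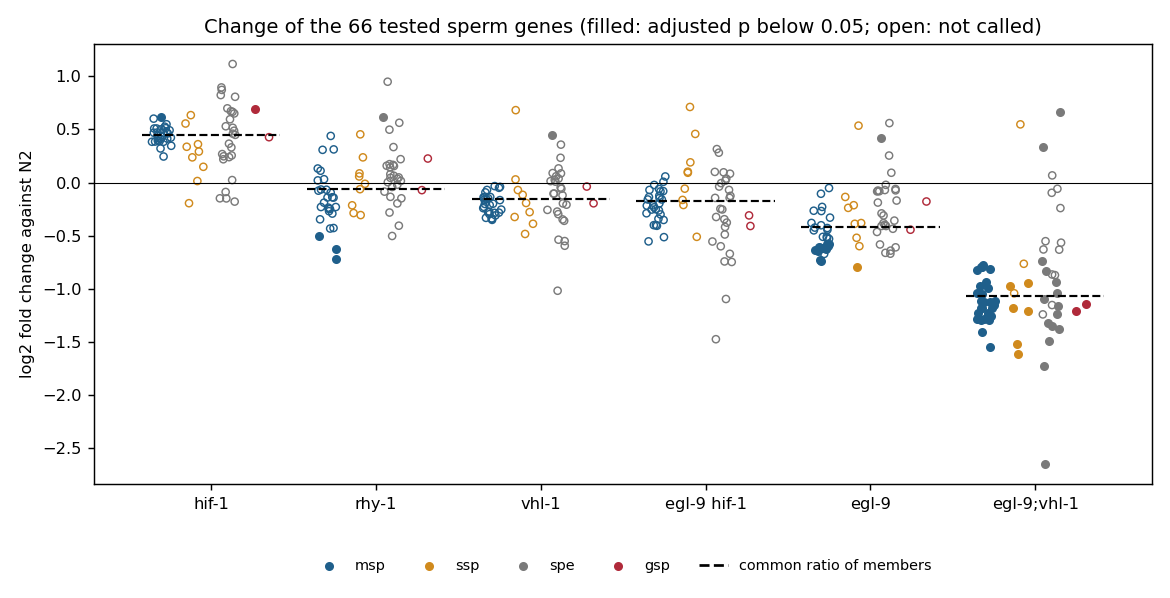
Log2 fold change against N2 of each of the 66 tested sperm genes in the 6 mutants, coloured by family; filled points passed the test and dashed lines mark the common ratio of the sperm genes. In egl-9;vhl-1 all 28 msp genes are filled and lie at or below −0.77, while in hif-1 61 of 66 genes lie above 0 and 2 are filled.

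To ask whether the sperm genes moved by 1 ratio, they were scaled in each library by their own median ratio, so that a change in this second test is a departure from the set's common ratio. The common ratio to N2 was 0.476 in egl-9;vhl-1, 0.749 in egl-9, 0.96 in rhy-1, 0.897 in vhl-1, 1.37 in hif-1 and 0.887 in egl-9 hif-1. The tests take this ratio as known. In egl-9;vhl-1, 51 of 66 sperm genes did not differ from it at an adjusted p below 0.05, and 10 lay above it and 5 below (15 in all), where 34.3% of all tested genes were called with the other genes on their usual scale. Within 0.25 log2 of the common ratio lay 39 of the 66 sperm genes, 21 of 28 msp genes and 11 of 27 spe genes.

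The largest departures in egl-9;vhl-1 were in spe genes and ssp-37. Relative to the common ratio, spe-5 was higher by 1.73 log2 (SE 0.18, edgeR adjusted p = 5.49e-07), ssp-37 by 1.60 (0.000556), spe-48 by 1.38 (9.41e-05), spe-6 by 1.02 (0.000876), spe-39 by 0.97 (0.00337) and spe-44 by 0.82 (0.00235). On the ordinary scale, spe-5 and spe-48 had risen and the other 4 did not pass the test. Their levels in N2 were between 1.88 CPM, in ssp-37, and 65.8 CPM, in spe-48. Over the 21 libraries, 4 of them did not follow the summed sperm gene level. Their Pearson r, on log2 CPM with 0.5 added, was −0.478 for spe-5, −0.269 for spe-48, −0.159 for ssp-37 and −0.138 for spe-39. For spe-6 and spe-44 it was 0.538 and 0.739. How much of the RNA of these genes came from sperm was not tested. Below the common ratio lay spe-9 (−1.60, SE 0.48, edgeR adjusted p = 0.0149), ssp-35 (−0.53, 0.00866) and spe-18 (−0.37, 0.0405).

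Departures within the msp family were small and differed with position. In egl-9;vhl-1, msp-51, msp-55, msp-57 and msp-65 lay above the common ratio by 0.26 to 0.31 log2, and msp-32 and msp-56 lay below it, at −0.20 and −0.15. The 4 higher genes all lie on chromosome IV in the cluster between 5055631 and 5316906. A grouping by position, made after these values were seen and given as a description, put the median departure of the 8 tested msp genes of that cluster at 0.21, of the 11 on chromosome II at −0.15 and of the 9 further along chromosome IV at −0.09. Because copies share reads, how far the sharing of estimated counts enters these departures was not tested.

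**Figure D3:**
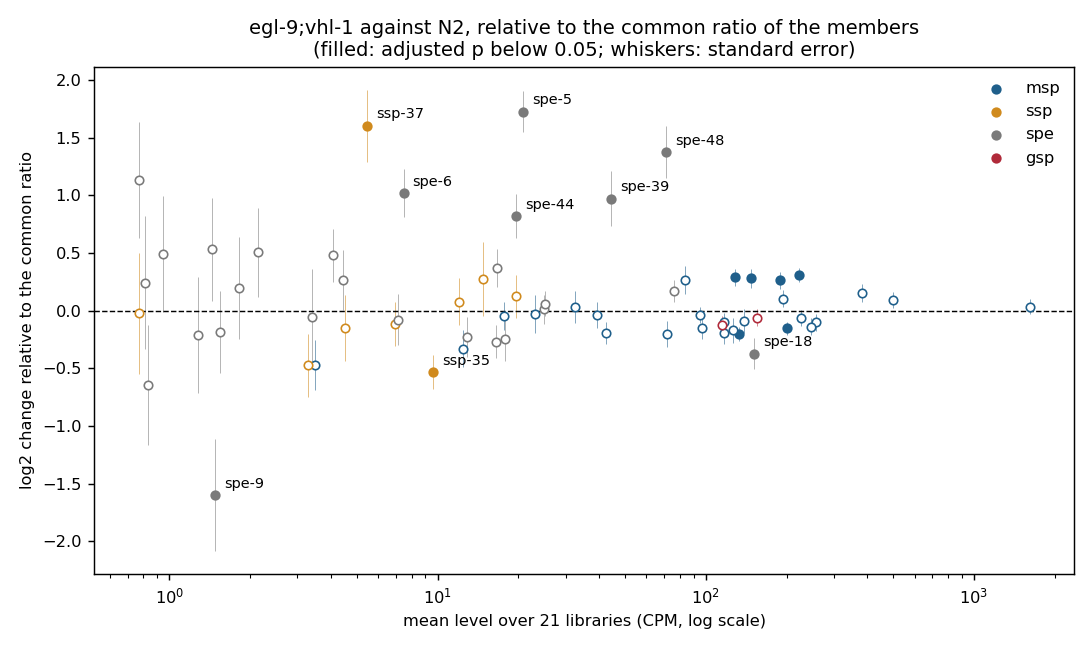
Log2 change in egl-9;vhl-1 against N2 of each tested sperm gene relative to the common ratio (dashed line, with standard errors), against its mean level over 21 libraries in CPM on a log axis. Filled points differ from the common ratio at an adjusted p below 0.05; spe-5, ssp-37, spe-48, spe-6, spe-39 and spe-44 lie at 0.82 or more, while the tested msp genes lie between −0.47 and 0.31.

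Fewer sperm genes were called in egl-9 than in egl-9;vhl-1. In egl-9 against N2, 11 of 66 fell and 1 rose (edgeR, adjusted p below 0.05), that is 16.7% and 1.52% of them, where 11% of all tested genes fell and 14.8% rose. A negative change was seen in 61 of 66 (median −0.41, against 0 over all tested genes). The falls were 10 msp genes and ssp-31. An example is msp-36 (chromosome IV, 10095433 to 10095816), at 69.7, 98.4 and 106.2 CPM in N2 and at 60.4, 41 and 63.3 CPM in egl-9 (log2 fold change −0.73, SE 0.21, edgeR adjusted p = 0.0145), with no overlap. Another is msp-56, at 189.3, 247.5 and 281.5 CPM in N2 and at 184.3, 117.5 and 179.2 CPM in egl-9 (log2 fold change −0.58, edgeR adjusted p = 0.0207). The gene that rose was spe-5, at 22.6, 21.3 and 22 CPM (log2 fold change 0.42, SE 0.12, edgeR adjusted p = 0.0143), again without overlap with N2.

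This count rested on single libraries. It was 1 without egl-9 replicate 2, the library with the lowest sperm gene level of its genotype, 1 without N2 replicate 2, 2 without N2 replicate 3 and 22 without N2 replicate 1. A fit of egl-9 and N2 alone called 2 genes. In egl-9, 13 sperm genes departed from the common ratio of 0.749 (8 above and 5 below, where 25.8% of all tested genes were called in that fit), among them spe-5 (0.84 log2, edgeR adjusted p = 0.00158), msp-55 (0.32, 0.00248), msp-57 (0.35, 0.00302) and spe-15 (0.36, 0.00566). That number was 5 without egl-9 replicate 1, 6 without N2 replicate 2 and 8 without egl-9 replicate 3.

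In rhy-1 the sperm genes as a set stayed near the N2 level, with a median log2 fold change of −0.05. Of 66 sperm genes, 3 fell and 1 rose, against 12.8% and 16.7% of all tested genes (edgeR). The falls were msp-36, msp-56 and msp-64, and the rise was spe-5, at 24.6, 26.7 and 24 CPM (log2 fold change 0.61, SE 0.12, edgeR adjusted p = 0.000716), above all N2 libraries. The count was 2 without N2 replicate 2, N2 replicate 3, rhy-1 replicate 1 or rhy-1 replicate 2. Relative to the common ratio, 6 genes lay above and 6 below, where 29.7% of all tested genes were called in that fit. msp-65 lay above it by 0.51 log2 (SE 0.06, edgeR adjusted p = 4.7e-06), and msp-56 below it, at −0.43 (SE 0.06, 1.26e-05). msp-65 was at 254.9, 315.7 and 320.8 CPM in rhy-1 and at 171, 229.1 and 257.5 CPM in N2, ranges that overlapped.

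In vhl-1, no sperm gene fell and only spe-5 rose, where 5.95% and 6.54% of all tested genes did (edgeR). At an unadjusted p below 0.05 there were 2 of 66 sperm genes, where 3465 of all 13043 tested genes were. DESeq2 also called 1 sperm gene. spe-5 was at 24.5, 22.5 and 20.3 CPM in vhl-1, above all N2 libraries (log2 fold change 0.45, SE 0.12, edgeR adjusted p = 0.0179). The call was absent without N2 replicate 1, N2 replicate 2, vhl-1 replicate 1 or vhl-1 replicate 2, and in a fit of vhl-1 and N2 alone (edgeR adjusted p = 0.0617). It was also the only sperm gene off the common ratio in vhl-1 (0.61 log2, edgeR adjusted p = 0.0312, where 12.6% of all tested genes were called). That call was also absent without N2 replicate 2, N2 replicate 3 or vhl-1 replicate 1, in the fit of vhl-1 and N2 alone and with a common ratio from sperm genes outside msp. In hif-1 worms spe-5 was at 14.2, 20.2 and 15.8 CPM, and in egl-9 hif-1 worms at 17.2, 16.3 and 18.7 CPM, ranges that overlapped N2.

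In hif-1 the sperm genes had higher means as a set, but few passed the test. Of 66 sperm genes, 61 had a positive change, with a median of 0.43 against 0.04 over all tested genes. None fell and 2 rose, msp-38 and gsp-3, where 6.14% and 8.21% of all tested genes did (edgeR). At an unadjusted p below 0.05 there were 33 of 66 sperm genes, where 4035 of all 13043 tested genes were. DESeq2 called 7 sperm genes, all higher. gsp-3 was at 182.7, 284.2 and 299.4 CPM in hif-1 (log2 fold change 0.69, SE 0.21, edgeR adjusted p = 0.0318), and its first library lay within the N2 range. In a fit of hif-1 and N2 alone its adjusted p was 0.0583.

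The hif-1 count moved with 9 of the 21 libraries. Without hif-1 replicate 1, which had the lowest sperm gene level of its genotype, 26 sperm genes were higher, and without hif-1 replicate 2, hif-1 replicate 3 or N2 replicate 1 there were 0. It was 13 without N2 replicate 3, 1 without N2 replicate 2, 4 without egl-9 replicate 1, 7 without egl-9 replicate 2 and 4 without vhl-1 replicate 2. Against the common ratio of 1.37, 65 of 66 sperm genes were not called and gsp-3 lay above it by 0.23 log2 (edgeR adjusted p = 0.0459, where 14.4% of all tested genes were called). That call was lost when any of 12 single libraries was left out.

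In egl-9 hif-1 against N2, no sperm gene was called in either direction by edgeR or DESeq2, where 3.06% of all tested genes fell and 3.49% rose (edgeR). At an unadjusted p below 0.05 there were 7 of 66 sperm genes, where 2696 of all 13043 tested genes were. The median over the sperm genes was −0.21. No sperm gene was off the common ratio, where 6.59% of all tested genes were called. At an unadjusted p below 0.05, 14 were off it, a limit for which the share over all genes is not given here. Without N2 replicate 1 there was 1 sperm gene called lower, and 2 off the common ratio. The summed gsp level was even among the libraries, at 225.8 to 227.7 CPM, and overlapped that of N2 (226.3 to 357.1 CPM).

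Between mutants, the sperm genes were lower in egl-9;vhl-1 than in either single mutant. Against vhl-1, 45 of 66 fell and none rose (10% and 7.17% of all tested genes; edgeR), including all 28 msp genes, with a median of −0.90. An unadjusted p below 0.05 was reached by 52 of 66 sperm genes and by 3672 of all 13043 tested genes. DESeq2 called 47 sperm genes, all lower. Against egl-9, 21 fell and none rose (6.69% and 1.78%), with a median of −0.65. That second count was 45 without egl-9 replicate 2, and 0 without egl-9 replicate 1. It was 1 without egl-9 replicate 3, egl-9;vhl-1 replicate 1 or egl-9;vhl-1 replicate 3. Against egl-9, an unadjusted p below 0.05 was reached by 47 of 66 sperm genes and by 2907 of all 13043 tested genes. DESeq2 called 31 sperm genes, all lower. egl-9 and vhl-1 themselves gave 0 calls in edgeR and DESeq2 (4.33% and 7.62% of all tested genes), and 1 call without vhl-1 replicate 3. For these 2 mutants, 4 sperm genes had an unadjusted p below 0.05, and the share over all tested genes is not given here.

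In egl-9 hif-1 against hif-1, 43 of 66 sperm genes fell and none rose (17.7% and 12.8% of all tested genes; edgeR), with 24 of 28 msp genes, 15 of 27 spe genes, 2 of 9 ssp genes and both gsp genes among them. Of the 8 fertilization genes, 7 fell. gsp-3 was at 126.2, 121.4 and 134.6 CPM in egl-9 hif-1, below all hif-1 libraries (2.00-fold, edgeR adjusted p = 0.00166). An unadjusted p below 0.05 was reached by 45 of 66 sperm genes and by 5425 of all 13043 tested genes. DESeq2 called 42 sperm genes, all lower. The count was 15 without hif-1 replicate 2, 19 without hif-1 replicate 3, 20 without egl-9 hif-1 replicate 3 and 27 without egl-9 hif-1 replicate 1. In egl-9 hif-1 against egl-9, ssp-31 rose (log2 fold change 0.74, edgeR adjusted p = 0.0363, with overlapping groups) and no sperm gene fell, where 8.18% and 13.2% of all tested genes did. An unadjusted p below 0.05 was reached by 6 of 66 sperm genes and by 4076 of all 13043 tested genes. DESeq2 called 1 sperm gene, higher. The ssp-31 call was lost without egl-9 replicate 3, egl-9 hif-1 replicate 2 or egl-9 hif-1 replicate 3.

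An interaction compares the change in a genotype with 2 mutated genes with the sum of the changes in the single mutants. It was called for 1 sperm gene with hif-1 and 1 with vhl-1, both lower, where 13.7% and 5.73% of all tested genes were called lower and 8.42% and 3.06% higher (edgeR). With hif-1 the gene was gsp-3 (−0.82 log2, SE 0.29, edgeR adjusted p = 0.0499), while gsp-4, which shares reads with it, was not called. With vhl-1 the gene was spe-46 (−1.11 log2, SE 0.33, edgeR adjusted p = 0.0403), and the median over the sperm genes was −0.48 against −0.03 over all tested genes. spe-46 was at 17.8, 24 and 34.6 CPM in N2, at 31.1, 15.3 and 28.4 CPM in egl-9, at 24.4, 32.7 and 23.7 CPM in vhl-1 and at 11.4, 13.1 and 12.3 CPM in egl-9;vhl-1. Only the egl-9;vhl-1 libraries lay below all the others. The interaction calls were lost when any of 15 single libraries (with hif-1) or any of 7 (with vhl-1) was left out, and both were lost in fits of only the 4 genotypes concerned.

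Genes of other stages were measured beside the sperm genes, and their part in the results was not tested. In egl-9;vhl-1 against N2, 17 of 22 oocyte and eggshell genes (77.3%) rose and none fell, where 16.5% and 18.1% of all tested genes did, and their sum was at 18580 to 19830 CPM against 13890 to 15970 CPM in N2. Of 6 tested zygotic embryo genes 3 rose, with a sum of 11.3 to 16.2 CPM against 5.19 to 7.75 CPM in N2. In hif-1 the direction was the opposite: 7 of 22 oocyte and eggshell genes fell and none rose (a sum of 12620 to 14520 CPM, which overlapped N2), and 2 of 6 zygotic embryo genes fell (3.47 to 4.58 CPM). In vhl-1, 5 of the 22 rose (22.7%, against 6.54%), in egl-9 hif-1 6 (27.3%, against 3.49%), and none fell. Their sums, 16350 to 17800 and 17300 to 18240 CPM, lay above all N2 libraries, though no sperm gene fell in either mutant. In egl-9 3 rose and 2 fell, and in rhy-1 4 rose and 2 fell. The zygotic embryo sum in vhl-1, 11.31 to 15.12 CPM, also lay above all N2 libraries. Of 22 genes shared by the germline, 7 rose (31.8%) and 1 fell in egl-9;vhl-1. In hif-1, 1 rose and 2 fell (4.55% and 9.09%), near the 8.21% and 6.14% of all tested genes.

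Genes of molting and the cuticle, listed here for the L4 molt (the molt into the adult), were most often called in egl-9 and rhy-1. Whether the list is particular to that molt was not tested. Of 25 tested molt genes, 12 rose in egl-9 (48%, where 14.8% of all tested genes did) and 15 in rhy-1 (60%, against 16.7%). In egl-9;vhl-1 4 rose (16%), close to the 16.5% of all tested genes, and in vhl-1 3 rose (12%, against 6.54%), with 1 lower in each of these 4 mutants and none called in hif-1 or egl-9 hif-1. Their sum was at 155.2 to 167.5 CPM in N2, 402.5 to 1033 CPM in egl-9, 460.7 to 895.8 CPM in rhy-1, 174.7 to 363.1 CPM in egl-9;vhl-1 and 187.7, 464 and 166.7 CPM in the vhl-1 libraries. It was at 174.1 to 195.9 CPM in hif-1 libraries, also above all N2 libraries, as were those of egl-9 hif-1 at 171.1 to 187.3 CPM. Of the 6 yolk protein genes, 5 fell in egl-9 and 3 each in rhy-1, vhl-1 and egl-9;vhl-1. Of all tested genes, 11%, 12.8%, 5.95% and 18.1% fell in these 4 mutants, in that order. No yolk gene was called in hif-1 or egl-9 hif-1. Of 10 markers of male somatic tissue, cwp-1, cwp-2, cwp-3 and plg-1 had 0 counts in all 21 libraries. The genes try-5 (11 to 47 counts), mab-3 (3 to 23) and cwp-4 (4 to 21) had counts in every library, and lov-1, pkd-2 and cil-7 in some. The 10 genes summed to 4.59 to 5.58 CPM in N2. Their sums were higher in rhy-1 (7.89 to 9.54 CPM), egl-9;vhl-1 (5.91 to 8.52 CPM) and egl-9 (5.849 to 6.665 CPM), and overlapped N2 in the other mutants. Of 3 tested markers, 1 rose in rhy-1, where 16.7% of all tested genes did.

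**Figure D4:**
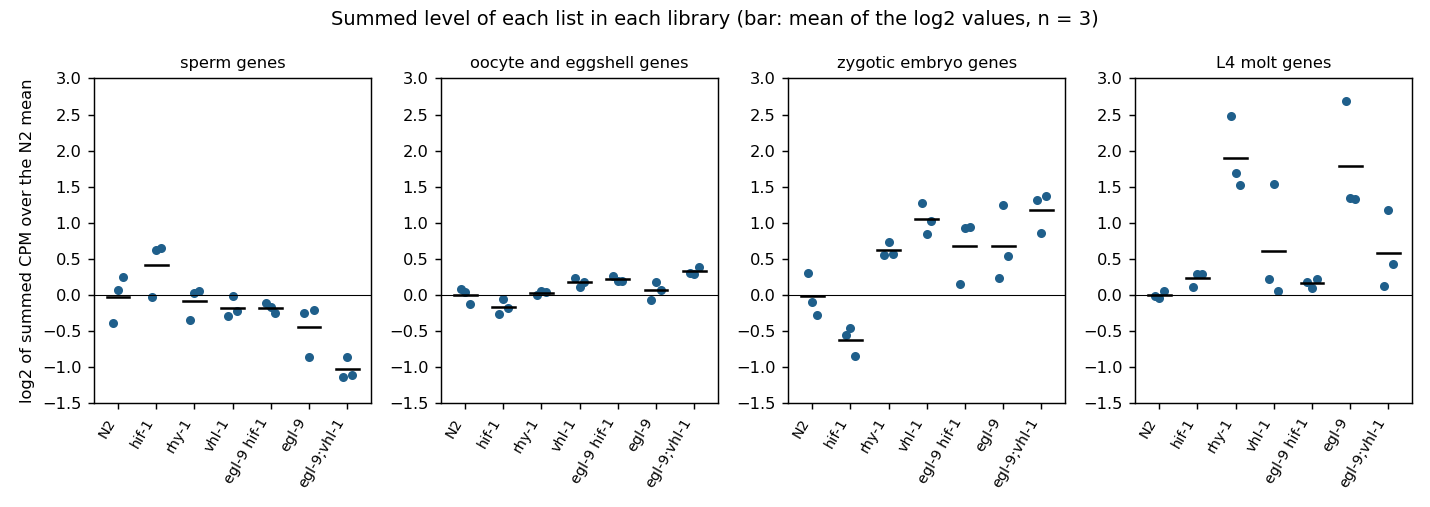
Log2 ratio of the summed CPM of each list to the N2 mean, for each library (points) with the mean of 3 (bar). The egl-9;vhl-1 libraries are low for sperm genes and high for oocyte and eggshell genes, hif-1 has the highest mean for sperm genes and the lowest for oocyte, eggshell and zygotic embryo genes, and the L4 molt genes lie above all N2 libraries in every mutant library but 1 of vhl-1, with the highest means in egl-9 and rhy-1.

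Other genes known from sperm, outside the naming rule, fell beside the set. Of 30 tested genes of such a list, 19 fell and 1 rose in egl-9;vhl-1, where 18.1% and 16.5% of all tested genes did. In hif-1, 7 rose and none fell, where 8.21% and 6.14% of all tested genes did. msrp-5, which was called in the most comparisons with N2, was at a mean of 20.1 CPM in egl-9;vhl-1 against 43.7 CPM in N2 (log2 fold change −1.11, edgeR adjusted p = 5.38e-05) and at 69.2 CPM in hif-1 (0.66, 0.0111). alg-3 and alg-4, Argonaute genes of spermatogenesis, fell in egl-9;vhl-1 (−0.97 and −1.13) and rose in hif-1 (0.93 and 0.77). The gene that rose in egl-9;vhl-1 was fog-1, which directs germ cells to the sperm fate, at 18.3 against 12.8 CPM (0.52, edgeR adjusted p = 0.00578).

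Across the 21 libraries, the genes outside the set whose level followed the summed sperm gene level most closely were nsph-3.2 (Pearson r = 0.994 on log2 CPM with 0.5 added), ssq-2 (0.989), ZK945.7 (0.987), rmd-3 (0.984), ssq-1 and T16A9.5 (0.983 each), and T27E7.1 and W03D8.9 (0.982 each). nsph-3.2 was at a mean of 717 CPM in N2, 972 CPM in hif-1 and 315 CPM in egl-9;vhl-1. A correlation of at least 0.9 was found for 39 of the 66 sperm genes, which are part of the sum themselves, and for 334 of 12977 other genes. The libraries share their depth scaling, so these values describe likeness only.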

How the data were processed

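RNA-seq tables of 21 libraries from young adult worms were used (total RNA, SmartSeq2, which does not mark strand). The authors deposited, per transcript, kallisto estimated counts and TPM with transcript lengths, per the file headers. Per the submitters' processing notes the tools were kallisto and bcl2fastq 1.8.4; kallisto's version, genome build and transcript set: not given in the sources used here. Transcripts were matched to Ensembl 115 (WBcel235): 28369 by transcript name, 4229 by sequence name, and 307 were kept under their own sequence name (0.102 to 0.127% of a library's counts). Estimated counts were summed per gene and rounded to whole numbers, giving 22037 genes at 7329864 to 10102598 counts per library. TPM was used for levels between genes and, as an alternative, for the summed sperm gene level as a ratio to N2. By TPM that ratio was 0.722 in egl-9, 0.944 in rhy-1, 0.894 in vhl-1, 1.26 in hif-1, 0.905 in egl-9 hif-1 and 0.481 in egl-9;vhl-1.

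edgeR 4.0.16 (R 4.3.3) was fitted to all 21 libraries with genotype as the only term, TMM scaling and filterByExpr at a minimum count of 10 (13043 genes kept); the quasi-likelihood test was adjusted by Benjamini-Hochberg over all of them at 0.05. The second fit scaled the sperm genes by their own median ratio per library. Each SE was obtained as |change| / sqrt(F). The labels do not say whether replicates are separate cultures, so the p-values reflect only how far these samples vary, which may be technical; no 2 libraries were identical. Of the sperm genes, 14 overlap another gene. DESeq2 1.42.0 and other settings served as alternatives, for which shares over all genes are not given here.

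Named genes were the 3 most abundant members of each family (5 for spe), up to 4 with the smallest adjusted p against the common ratio in each comparison with N2, tested spe genes with a listed role, the 8 most alike other genes and genes of the sperm list called most often; others named were chosen after their values were seen. The members and all lists (other sperm, L4 molt, oocyte and eggshell, shared germline, yolk, zygotic embryo and male soma genes) were chosen with earlier results of these data known. Of the list entries, 7 matched no gene. Some members counted in the totals are not reported by name here.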

Additional observations from a re-analysis of the deposited data

Results flagged for a closer look

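The change of gsp-3 in egl-9 hif-1 differed from the sum of its changes in egl-9 and hif-1 by −0.82 log2, a difference between genotypes in the effect of the same mutation (edgeR's quasi-likelihood test, Benjamini-Hochberg adjusted p = 0.0499). The change of spe-46 in egl-9;vhl-1 differed from the sum of its changes in egl-9 and vhl-1 by −1.11 log2 (edgeR adjusted p = 0.0403). Each was the only sperm gene called of 66 tested, so gsp-4, which shares reads with gsp-3, was not called for the interaction with hif-1. The number of sperm genes called for the interaction with hif-1 was 0 when any of 15 single libraries was left out. It was 5 without N2 replicate 3 and 7 without egl-9 replicate 2. The number called for the interaction with vhl-1 was 0 when any of 7 single libraries was left out. It was 2 without vhl-1 replicate 3, hif-1 replicate 1 or egl-9;vhl-1 replicate 2, 7 without N2 replicate 3 and 11 without egl-9 replicate 2.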

How the results depend on the processing

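Numbers of sperm genes called are given here, first for the tests on the ordinary scale. RLE size factors gave 0 for the egl-9 by hif-1 interaction. No filter on low counts gave 0 and 2 for the interactions with hif-1 and vhl-1. A minimum count of 30 gave 4 for hif-1 against N2, 2 for egl-9 hif-1 against egl-9, 0 and 2 for the interactions, and 3 off the common ratio in hif-1. DESeq2 gave 7 for hif-1 and 2 for the vhl-1 interaction. An adjusted p below 0.1 gave 19 for egl-9, 12 for hif-1, 1 for egl-9 hif-1, 3 for egl-9 hif-1 against egl-9, 35 for egl-9;vhl-1 against egl-9, 2 and 3 for the interactions, and 3, 3 and 6 off the common ratio in vhl-1, hif-1 and egl-9 hif-1. Fitting only the genotypes compared gave 2 for egl-9, 0 for vhl-1, 0 for hif-1, 0 for egl-9 hif-1 against egl-9, 11 for egl-9;vhl-1 against egl-9, 0 for both interactions, and 6, 0 and 0 off the common ratio in egl-9, vhl-1 and hif-1. A common ratio from summed counts gave 0 off it in hif-1, and a ratio from genes outside msp gave 6, 0 and 9 in egl-9, vhl-1 and egl-9;vhl-1. The cause was not tested. The calls against N2 of sperm genes named by rule kept their direction under every setting tried. They were followed because they had passed the test, so a turn was unlikely from the start. Other changes were not followed in this way.

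With the replicate number as a block, 5 sperm genes were called in hif-1, 0 in egl-9 hif-1 against egl-9 and 0 off the common ratio in hif-1, and spe-41 in egl-9;vhl-1 missed the threshold (edgeR adjusted p = 0.0527). Whether the numbers pair the libraries was not settled. Over 63 same-number pairs the correlation of deviations was −0.29 to 0.253 (mean 0.0158, against −0.00782 for other numbers). Of 21 libraries, 11 were nearest their own number out of 3 numbers.

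Leaving out 1 library at a time gave the following ranges. Against N2 they were 1 to 22 for egl-9, 2 to 5 for rhy-1, 0 to 1 for vhl-1, 0 to 26 for hif-1, 0 to 1 for egl-9 hif-1 and 43 to 53 for egl-9;vhl-1. Between mutants they were 0 to 2 for egl-9 hif-1 against egl-9, 15 to 46 against hif-1, 0 to 45 for egl-9;vhl-1 against egl-9, 31 to 48 against vhl-1 and 0 to 1 for egl-9 against vhl-1. The interactions gave 0 to 7 with hif-1 and 0 to 11 with vhl-1. Off the common ratio were 5 to 14 in egl-9, 9 to 12 in rhy-1, 0 to 2 in vhl-1, 0 to 3 in hif-1, 0 to 2 in egl-9 hif-1 and 12 to 15 in egl-9;vhl-1. The summed level as a ratio to N2 was 0.673 to 0.853 in egl-9, 0.847 to 1.04 in rhy-1, 0.793 to 0.978 in vhl-1, 1.22 to 1.55 in hif-1, 0.791 to 0.975 in egl-9 hif-1 and 0.438 to 0.541 in egl-9;vhl-1. At this depth, spe genes near 1 CPM had the largest standard errors.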
